A study of Mus musculus with 12 samples.

Results

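RNA-seq counts of 44 collagen genes were examined among the 24453 genes measured in 4 lines of mouse embryonic fibroblasts (MEFs), with 3 libraries per line. The collagen genes are those whose symbol reads *Col*, a type number, *a* and a chain number, and all of them were kept whatever their level. They were grouped by the kind of assembly their chains build: 11 fibrillar genes, 8 basement membrane genes and 25 other genes. After genes with too few reads for a test were set aside, 30 of the 44 remained (10 fibrillar, 8 basement membrane and 12 other), among 14026 tested genes in all.

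All 4 lines come from cells with the same floxed allele of *Pnpt1*, labelled Pnpt1 neo-flox/neo-flox, on the C57BL6/J strain, and all were cultured with added uridine. *Pnpt1* encodes PNPase, a mitochondrial exoribonuclease. TM6 is the untreated parental line, rho0 is a TM6 derivative that was freed of mtDNA with ditercalinium dichloride dihydrochloride, and PKO-1 and PKO-6 are TM6 derivatives in which Adenoviral-Cre deleted part of *Pnpt1*. The study found no mtDNA signal and no respiration in its PKO clones either, so by its account each derived line lacks mtDNA. The study isolated rho0 and the PKO lines as single cell colonies, so each derived line is 1 clone, and the treatment cannot be told apart from the choice of that clone. The 3 libraries of a line are separate cultures of the same cells, and p-values measure the spread between such cultures.

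Collagens are triple helices of 3 alpha chains, each chain with its own gene. Fibrillar collagens (types I, II, III, V, XI, XXIV and XXVII) form the banded fibres of connective tissue, in which type I is the bulk and types V and XI set the start and width of a fibre. Type IV chains form the sheet of basement membranes as defined trimers of the chain pairs *Col4a1* with *Col4a2*, *Col4a3* and *Col4a4* with *Col4a5*, and *Col4a5* with *Col4a6*, and types XV and XVIII sit at that sheet as proteoglycans. The other collagens include the beaded filaments of type VI, the short-chain networks of types VIII and X, the anchoring fibrils of type VII and the fibril-associated types such as XII, XIV and XVI. Fibroblasts are the main makers of type I, III, V and VI collagen.

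Library totals ran from 47164860 to 67991378 counts, of which *Rn45s*, the ribosomal RNA precursor, took 12.2% to 19.6%. The levels given per library below are normalised counts, that is, counts scaled to a common library size by edgeR's TMM method, and they can be compared between libraries but not between genes. *Pnpt1* itself stood at a mean of 3131 normalised counts in TM6, 5271 in rho0, 1240 in PKO-1 and 1944 in PKO-6, which follows the labels of the PKO lines, although counts over the whole gene do not single out the deleted exon. Of 11 fibroblast markers, *Vim*, *Fn1*, *Prrx1*, *Twist1* and *Pdgfrb* stood at 1458 normalised counts or more in every library, whereas *Thy1* was at 5 counts or fewer in every library and *Lum* was at 0 in rho0. Others differed widely between lines: *Fbn1* went from a mean of 10318 normalised counts in TM6 to 1191 in rho0, 2348 in PKO-1 and 138 in PKO-6, *S100a4* from 23368 to 6178, 28584 and 7942, and *Pdgfra* from 342 to 81.6, 3225 and 415. The summed level of the 11, nearly all of it *Fn1* and *Vim*, ran from 289565 to 304404 normalised counts in TM6, 336818 to 355489 in rho0, 429407 to 463212 in PKO-1 and 297217 to 311448 in PKO-6. At 3 counts or fewer in all libraries were the defining markers *Ptprc*, *Adgre1* and *Itgam* (blood), *Myod1* and *Myog* (muscle) and *Krt5* and *Krt14* (keratinocytes), but other members of the marker lists were not silent. *Cd68* lay between 72.6 and 199.7 normalised counts in all libraries, *Krt18* had a mean of 242 in TM6, 430.1 in rho0, 816 in PKO-1 and 8.001 in PKO-6, *Epcam* was at 4.35 in TM6 and 88.0 in PKO-6, and *Des* was at 9.82 in TM6, 12.8 in rho0, 50.02 in PKO-1 and 43.5 in PKO-6. For 4 endothelial markers, led by *Kdr*, the summed level was 44.9 to 86.8 normalised counts in TM6, 20.3 to 32.1 in rho0, 27.9 to 55.9 in PKO-1 and 158 to 177 in PKO-6, and that of 4 neural and Schwann cell markers, led by *Tubb3*, was 196 to 213, 465 to 580.2, 537 to 563 and 208 to 228. The part of these markers in the results was not tested. Between libraries of a line, the chi-square of the counts per degree of freedom ran from 4.47 to 129, and rho0 replicate 1 (61.8 and 81.6 against its fellows) and PKO-6 replicate 3 (76.9 and 129) stood furthest from the others. In bulk RNA, fewer cells that make a collagen and less of its RNA per cell cannot be told apart.

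The upstream sequence of 3 start regions is shown because these genes frame the results that follow: *Col1a2* was the most abundant collagen mRNA in each derived line, after *Col1a1* in TM6, *Col3a1* moved in opposite directions between lines, and *Col4a3* and *Col4a4* share a start region and were higher in every derived line. The sequences are RefSeq's, on GRCm38.p6, read 5′ to 3′ on the plus strand. Capitals mark matches, on either strand and without overlap, to 3 motifs (TATA, CCAAT and GC box) whose letters follow after the sequences.
Col1a2, the 250 bases before its start, chr6:4505368-4505617: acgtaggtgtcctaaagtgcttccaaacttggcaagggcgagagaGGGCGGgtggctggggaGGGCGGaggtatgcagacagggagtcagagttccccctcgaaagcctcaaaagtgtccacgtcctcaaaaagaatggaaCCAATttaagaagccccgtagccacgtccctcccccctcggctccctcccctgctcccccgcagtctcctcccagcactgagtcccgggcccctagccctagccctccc
Col3a1, the 250 bases before its start, chr1:45311288-45311537: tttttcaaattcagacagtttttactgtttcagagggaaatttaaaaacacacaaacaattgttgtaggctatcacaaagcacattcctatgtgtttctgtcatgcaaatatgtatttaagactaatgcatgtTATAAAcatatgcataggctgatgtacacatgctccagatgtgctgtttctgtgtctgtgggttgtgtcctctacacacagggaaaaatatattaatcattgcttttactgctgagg
Col4a4 and Col4a3, the 71 bases between their starts, chr1:82586850-82586920: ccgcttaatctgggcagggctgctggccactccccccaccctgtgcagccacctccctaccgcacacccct

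The RefSeq table held 38 start sites of 35 of the 44 genes. In the 250 bases before the start, GGGCGG was present at 57.9% of the collagen start sites and at 32.7% of all 32851 start sites, CCAAT at 34.2% and 33.8%, and TATAAA at 13.2% and 12.4%, searching both strands. These matches describe the letters in the window and say nothing of whether a factor binds there.

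Collagen genes together took a smaller share of the counts in each derived line than in TM6. Outside *Rn45s*, they held 0.958% to 1.09% of counts in TM6, 0.704% to 0.752% in PKO-1, 0.487% to 0.551% in rho0 and 0.322% to 0.384% in PKO-6, with no overlap between any pair of lines. The fibrillar genes carried this order, with a mean share of 0.828% ± 0.0595 in TM6 (SD, n = 3), 0.377% ± 0.0317 in rho0, 0.5004% ± 0.0184 in PKO-1 and 0.222% ± 0.0281 in PKO-6. By contrast, the basement membrane genes as a sum did not follow it: their share lay between 0.0594% and 0.0787% in all 12 libraries, and was highest in PKO-1. That sum holds opposite changes. From TM6 to rho0, PKO-1 and PKO-6, *Col18a1* went from a mean of 8427 normalised counts to 24054, 28288 and 24199. Over the same lines *Col4a1* went from 9460 to 3714, 3793 and 969. The other collagens held 0.136% ± 0.00605 in TM6 and 0.153% ± 0.00727 in PKO-1, against 0.0626% ± 0.00107 in rho0 and 0.0711% ± 0.00107 in PKO-6. Within the collagen counts, *Col1a1* and *Col1a2* took 57.5% to 61.4% in every library of TM6, rho0 and PKO-1 and 48.4% to 54.4% in PKO-6.

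**Figure D1:**
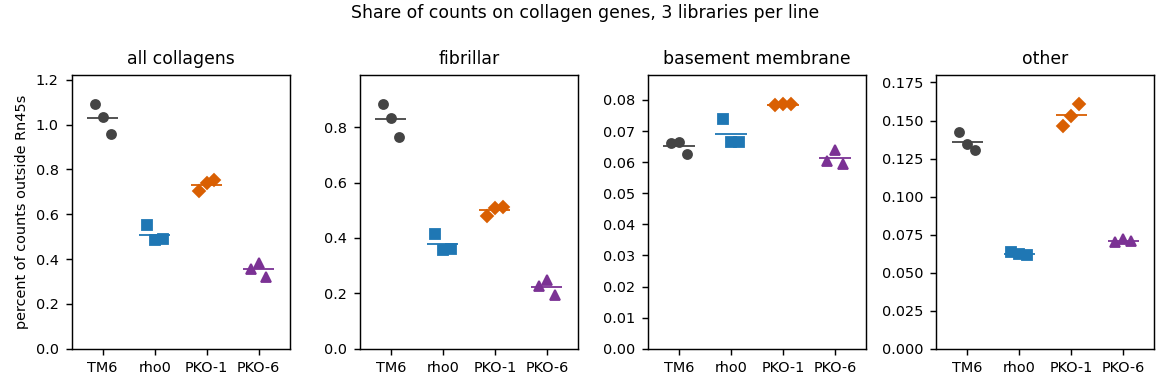
Share of counts on collagen genes in each library, in percent of the counts outside *Rn45s*, for all 44 collagens and for each group of them; each panel has its own axis, which starts at 0, points are the 3 libraries of a line, and the bar is their mean. All 3 TM6 libraries lie between 0.958% and 1.09% for all collagens, above every library of the derived lines, whereas the basement membrane share stays between 0.0594% and 0.0787% throughout. The basement membrane share sums genes that rose, such as *Col18a1*, and genes that fell, such as *Col4a1*.

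Per length of transcript, type I collagen led in every line but the order of its chains changed. On the TPM scale, which corrects for transcript length and so allows genes to be compared (mean ± SD, n = 3), *Col1a1* was first among the collagens in TM6 at 959.8 ± 87.9, ahead of *Col1a2* at 684 ± 41.5 and *Col5a2* at 301 ± 7.07. In each derived line *Col1a2* was first: it stood at 477 ± 23.03 TPM in rho0, 623 ± 17.5 in PKO-1 and 271 ± 24.1 in PKO-6. *Col1a1* followed at 318 ± 20.9, 493 ± 27.8 and 193 ± 25.2 TPM. *Col18a1* was 8th in TM6 with 52.5 ± 1.58 TPM and 3rd in the derived lines, with 147 ± 4.44 TPM in rho0, 168 ± 2.17 in PKO-1 and 145 ± 6.62 in PKO-6. Some neighbours in the order did not differ beyond their spread, among them *Col5a2* (46.9 ± 1.14 TPM) and *Col6a1* (46.8 ± 2.01 TPM) in PKO-6, and *Col6a3* (61.8 ± 4.55 TPM) and *Col5a2* (60.00 ± 2.83 TPM) in PKO-1.

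Each derived line was then compared with TM6 by edgeR's quasi-likelihood test. A gene was called where the Benjamini-Hochberg adjusted p over all 14026 tested genes was under 0.01 and the log2 fold change exceeded 0.5 in size. These are the thresholds the study used, but it applied them to fold changes that DESeq2 had moderated by an empirical Bayes step. The calls here are therefore not the same as those of the study. In rho0, 21 of the 30 tested collagens were called, 17 lower and 4 higher, where 42.1% of all tested genes were called (21.4% lower and 20.7% higher). In PKO-1, 20 were called, 14 lower and 6 higher, where 34.3% of all genes were called (17.9% lower and 16.4% higher). In PKO-6, 23 were called, 19 lower and 4 higher, where 41.3% of all genes were called (19.4% lower and 21.9% higher). The median log2 fold change of the 30 was -1.30 in rho0, -0.62 in PKO-1 and -1.69 in PKO-6, also with *Col15a1*, which was near 0 outside TM6, set to its bound, where the median of all tested genes was 0.02, 0.00 and 0.01. These 3 comparisons share the TM6 libraries and are therefore given side by side only.

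By group, 7 of the 10 tested fibrillar genes fell and 1 rose in rho0, 6 fell and 1 rose in PKO-1, and 8 fell and none rose in PKO-6. Called fibrillar genes were thus 80% in rho0, 70% in PKO-1 and 80% in PKO-6, beside 42.1%, 34.3% and 41.3% of all tested genes. Of the 8 basement membrane genes, 4 fell in rho0 and 5 in each PKO clone, and 3 rose in each line, or 87.5%, 100% and 100% called. Of the 12 other collagens, 6 fell in rho0 and none rose, 3 fell and 2 rose in PKO-1, and 6 fell and 1 rose in PKO-6. Called in either direction were thus 50% in rho0, 41.7% in PKO-1 and 58.3% in PKO-6, nearer to the shares of all genes. By direction, 6 of the 12 were lower in rho0 and in PKO-6, where 21.4% and 19.4% of all tested genes were called lower. None was higher in rho0 and 1 was in PKO-6, beside 20.7% and 21.9% of all tested genes. In PKO-1, 3 of the 12 were lower and 2 higher, beside 17.9% and 16.4% of all tested genes. In all 3 comparisons, 12 collagens were called lower (9.25% of all tested genes were) and 3 higher (8.28% of all tested genes). The 12 were *Col1a1*, *Col5a1*, *Col5a2*, *Col11a1* and *Col27a1* among the fibrillar genes, *Col4a1*, *Col4a2*, *Col4a5* and *Col15a1* of the basement membrane, and *Col8a2*, *Col10a1* and *Col12a1*. The 3 were *Col4a3*, *Col4a4* and *Col18a1*.

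**Figure D2:**
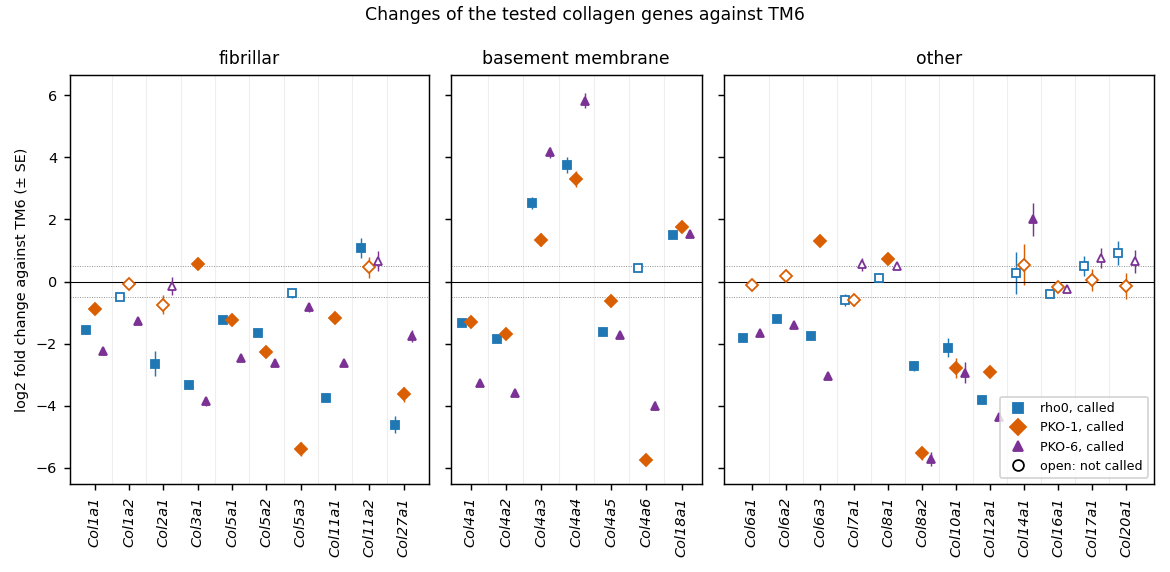
Log2 fold change against TM6 (vertical axis, ± SE) of the tested collagen genes, by group, in rho0 (squares), PKO-1 (diamonds) and PKO-6 (triangles); filled symbols were called, open ones were not, and dotted lines mark 0.5 in size. *Col15a1* is left out because it was at 3 counts or fewer in each derived line. Most fibrillar genes lie below 0 in all lines, *Col4a3*, *Col4a4* and *Col18a1* lie above it, and *Col3a1* and *Col6a3* lie above 0 in PKO-1 (0.56 and 1.31) and below it in rho0 and PKO-6.

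Among the fibrillar genes, the chains of type I moved unequally. *Col1a1*, on chromosome 11 (94936224 to 94953042), encodes the chain that is present in double dose in the type I helix. It stood at 196509, 186142 and 163969 normalised counts in TM6, 71605, 55804 and 57449 in rho0, 92549.6, 103746 and 97989 in PKO-1 and 38824, 45333 and 30948 in PKO-6. No library of a derived line reached the lowest TM6 library, and PKO-6 held the 3 lowest values. The log2 fold change against TM6 was -1.56 ± 0.13 (adjusted p = 1.42e-07) in rho0, -0.89 ± 0.13 (adjusted p = 3.75e-05) in PKO-1 and -2.25 ± 0.14 (adjusted p = 3.70e-09) in PKO-6, each with its SE over 3 libraries per line. *Col1a2*, on chromosome 6 (4505618 to 4541543), encodes the partner chain.
Its levels were 118979, 116649 and 105803 normalised counts in TM6, 92422, 74006 and 76530.0 in rho0, 106407, 112581 and 107093 in PKO-1 and 47591, 53618 and 39759.8 in PKO-6. The PKO-1 values lay within the TM6 range, and only PKO-6 was called, at -1.28 ± 0.11 (adjusted p = 1.33e-07). In rho0 the change of *Col1a2* was -0.49 ± 0.11 (adjusted p = 9.56e-04), just under the fold threshold, and it passed in 7 of the 20 alternative settings, for instance at -0.61 without rho0 replicate 1. In PKO-1 it was -0.07 ± 0.11 (adjusted p = 0.605).

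The TPM ratio of *Col1a1* to *Col1a2* was accordingly 1.40 ± 0.0449 in TM6 (SD, n = 3) and under 1 in each derived line, at 0.666 ± 0.0116 in rho0, 0.791 ± 0.0249 in PKO-1 and 0.713 ± 0.0296 in PKO-6. No library of a derived line came near TM6, whose lowest library had a ratio of 1.36 against 0.808 for the highest derived one. The chains of type V, which pair with type I in mixed fibrils, shifted the other way. Their ratio *Col5a1* to *Col5a2* was 0.385 ± 0.0360 in TM6, 0.515 ± 0.00460 in rho0, 0.773 ± 0.0515 in PKO-1 and 0.425 ± 0.0127 in PKO-6, and the TM6 and PKO-6 libraries overlapped.

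**Figure D3:**
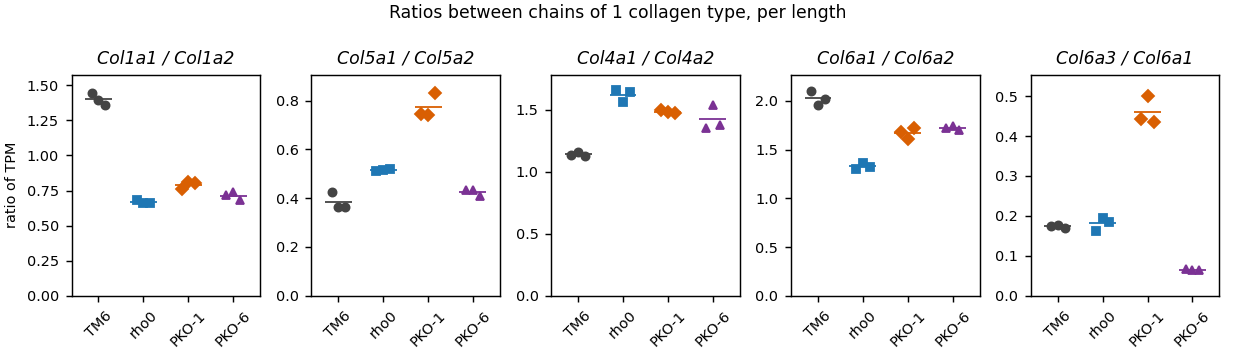
Ratio of the TPM values of chains of 1 collagen type in each library (points) with the mean of the 3 libraries of a line (bar); each panel has its own axis, which starts at 0. *Col1a1* to *Col1a2* lies above 1.35 in all TM6 libraries and under 0.81 in all others, and *Col6a3* to *Col6a1* is highest in PKO-1 (0.460) and lowest in PKO-6 (0.0651).

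*Col5a1* and *Col5a2* fell in every derived line. *Col5a1* stood at 33693, 30400.2 and 30102 normalised counts in TM6, 13888, 12816 and 12982 in rho0, 12731, 12512 and 14315 in PKO-1 and 5711, 5973 and 5191 in PKO-6. The rho0 and PKO-1 values overlapped, and PKO-6 lay under them, the changes against TM6 being -1.25 ± 0.07, -1.25 ± 0.07 and -2.48 ± 0.08 (adjusted p = 3.39e-09, 4.32e-09 and 4.01e-12). *Col5a2* stood at 61868, 65651 and 64454 normalised counts in TM6, 21315, 19378 and 19593 in rho0, 13362, 13216 and 13457 in PKO-1 and 10355, 10778 and 9887 in PKO-6. Its lines did not overlap, and the changes were -1.67 ± 0.06, -2.26 ± 0.06 and -2.63 ± 0.06 (adjusted p = 1.81e-11, 1.59e-12 and 2.79e-13). The third type V chain, *Col5a3*, was lowest in PKO-1. It stood at 353, 303 and 278 normalised counts in TM6, 234, 254 and 230.0 in rho0, 3.57, 12.8 and 5.17 in PKO-1 and 171, 183 and 171 in PKO-6. The change was -5.40 ± 0.24 (adjusted p = 2.39e-10) in PKO-1 and -0.83 ± 0.15 (adjusted p = 2.39e-04) in PKO-6, both called, and -0.38 ± 0.15 (adjusted p = 0.0361) in rho0, which was not. PKO-1 differed from PKO-6 by -4.57 ± 0.25 (adjusted p = 2.25e-09).

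*Col11a1* and *Col27a1*, fibrillar chains best known from cartilage, fell furthest in rho0. *Col11a1* stood at 4488, 4550.3 and 4316 normalised counts in TM6, 343, 334 and 323 in rho0, 1924, 1829.7 and 2098 in PKO-1 and 648, 796 and 709 in PKO-6. No lines overlapped, and the changes were -3.74 ± 0.08 in rho0, -1.19 ± 0.07 in PKO-1 and -2.64 ± 0.07 in PKO-6 (adjusted p = 2.52e-13, 4.32e-09 and 1.75e-12). *Col27a1* stood at 272, 162 and 221 normalised counts in TM6, 7.75, 7.76 and 11.2 in rho0, 14.3, 18.1 and 19.7 in PKO-1 and 53.2, 66.3 and 74.7 in PKO-6. All derived libraries were under the TM6 range, by -4.61 ± 0.27, -3.64 ± 0.24 and -1.76 ± 0.20 (adjusted p = 2.88e-09, 1.51e-08 and 2.67e-06). Reads of a microRNA gene, *Mir455*, lie within *Col27a1* on the same strand and could be shared with it.

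The remaining cartilage-type genes were low. *Col2a1* ranged over 16.95 to 20.1 normalised counts in TM6, 1.94 to 4.43 in rho0, 9.31 to 13.1 in PKO-1 and 11.4 to 21.3 in PKO-6. Only rho0 was called, at -2.65 ± 0.41 (adjusted p = 5.63e-05). *Col11a2* stood at 107, 51.6 and 95.7 normalised counts in TM6, 134, 214 and 192 in rho0, 126, 70.3 and 156 in PKO-1 and 171, 84.98 and 146 in PKO-6, and was called higher in rho0 at 1.08 ± 0.33 (adjusted p = 0.00965). That call was lost in 10 of 20 alternative settings, among them without any 1 of the 3 TM6 libraries, where adjusted p lay between 0.0106 and 0.0445. The change of *Col11a2* was 0.47 ± 0.34 (adjusted p = 0.243) in PKO-1 and 0.67 ± 0.33 (adjusted p = 0.0884) in PKO-6. Of 5 chondrocyte markers, the summed level was 1432 to 1482 normalised counts in TM6, 199 to 226 in rho0, 577 to 605 in PKO-1 and 732 to 795 in PKO-6, nearly all of it *Sox9*. *Matn3* was at 48.4 to 69.7 normalised counts in TM6 and at 22.8 or fewer in the derived lines, *Comp* lay between 11.2 and 30.3 in all libraries, *Acan* was at 3 counts or fewer in the derived lines, and *Matn1* so in all lines. Their part in the result was not tested.

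*Col3a1*, whose product forms fibrils with type I in extensible tissues, split the lines. It lies on chromosome 1 (45311538 to 45349706). It stood at 5147, 4917 and 4229.9 normalised counts in TM6, 535, 459 and 434 in rho0, 6539, 6597 and 7897 in PKO-1 and 313, 407 and 268 in PKO-6. PKO-1 was the highest of the lines, above all TM6 libraries, and rho0 and PKO-6 were far under both. Against TM6 the change was 0.56 ± 0.12 (adjusted p = 8.62e-04) in PKO-1, -3.32 ± 0.13 (adjusted p = 8.93e-11) in rho0 and -3.86 ± 0.14 (adjusted p = 1.99e-11) in PKO-6. The rise in PKO-1 was near the fold threshold: it was 0.48 without TM6 replicate 3, 0.46 without PKO-1 replicate 3 and 0.37 after the median change of its chromosome was removed, all under 0.5. The direct comparisons did not take TM6 as their reference, and PKO-1 exceeded PKO-6 by 4.42 ± 0.14 (adjusted p = 1.52e-11) and rho0 by 3.88 ± 0.14 (adjusted p = 5.23e-11).

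*Col6a3*, a long chain of type VI collagen on chromosome 1 (90766860 to 90843971), followed the same division. It stood at 9377, 8843 and 8069 normalised counts in TM6, 2551, 2680.3 and 2554 in rho0, 20136, 23096 and 21883 in PKO-1 and 1056, 1150.4 and 999.6 in PKO-6. No lines overlapped. It rose in PKO-1 by 1.31 ± 0.07 (adjusted p = 1.92e-09) and fell in rho0 and PKO-6, with -1.76 ± 0.07 (adjusted p = 1.02e-10) and -3.04 ± 0.08 (adjusted p = 7.14e-13). PKO-1 exceeded PKO-6 by 4.34 ± 0.08 (adjusted p = 1.58e-13) and rho0 by 3.06 ± 0.08 (adjusted p = 2.30e-12). A comparison of both PKO clones together with TM6 returned 0.38 ± 0.98 (adjusted p = 0.775) for *Col6a3* and -0.38 ± 0.97 (adjusted p = 0.771) for *Col3a1*, since the clones lay on opposite sides of TM6. In that pooled comparison 17 of the 30 collagens were called, 13 lower and 4 higher, where 25.7% of all genes were called (12.2% lower and 13.5% higher). With all 4 lines fitted and the changes of the clones averaged, 23 were called, and *Col3a1* was at -1.65 (adjusted p = 5.54e-09) and *Col6a3* at -0.86 (adjusted p = 1.62e-08).

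The other type VI chains, *Col6a1* and *Col6a2*, which join *Col6a3* in 1 trimer, fell in rho0 and PKO-6 and were not called in PKO-1. *Col6a1* stood at 20414, 18835 and 18042 normalised counts in TM6, 5895, 5138 and 5129.8 in rho0, 16913, 17242 and 18814 in PKO-1 and 5922, 6568 and 5801 in PKO-6. Its change was -1.83 ± 0.08 (adjusted p = 1.16e-10) in rho0, -1.65 ± 0.08 (adjusted p = 2.33e-10) in PKO-6 and -0.11 ± 0.07 (adjusted p = 0.194) in PKO-1, where the ranges overlapped. *Col6a2* stood at 9077, 8981 and 8367 normalised counts in TM6, 4229, 3516 and 3631 in rho0, 9428, 10043 and 10208 in PKO-1 and 3223, 3534 and 3185 in PKO-6. Its changes were -1.22 ± 0.07, -1.41 ± 0.07 and 0.17 ± 0.07 in the same order (adjusted p = 3.74e-09, 6.96e-10 and 0.0504). PKO-1 exceeded PKO-6 by 1.53 ± 0.08 (adjusted p = 9.50e-10) for *Col6a1* and by 1.58 ± 0.07 (adjusted p = 4.79e-10) for *Col6a2*. The TPM ratio of *Col6a3* to *Col6a1* was 0.173 ± 0.00468 in TM6 (SD, n = 3), 0.181 ± 0.0173 in rho0, 0.460 ± 0.0358 in PKO-1 and 0.0651 ± 0.00187 in PKO-6. Those of TM6 and rho0 overlapped, and those of the PKO clones lay above and below them. *Col6a1* to *Col6a2* was 2.03 ± 0.0717 in TM6, 1.33 ± 0.0324 in rho0, 1.67 ± 0.0594 in PKO-1 and 1.72 ± 0.0178 in PKO-6. *Col6a4*, *Col6a5* and *Col6a6* had too few reads to be tested.

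**Figure D4:**
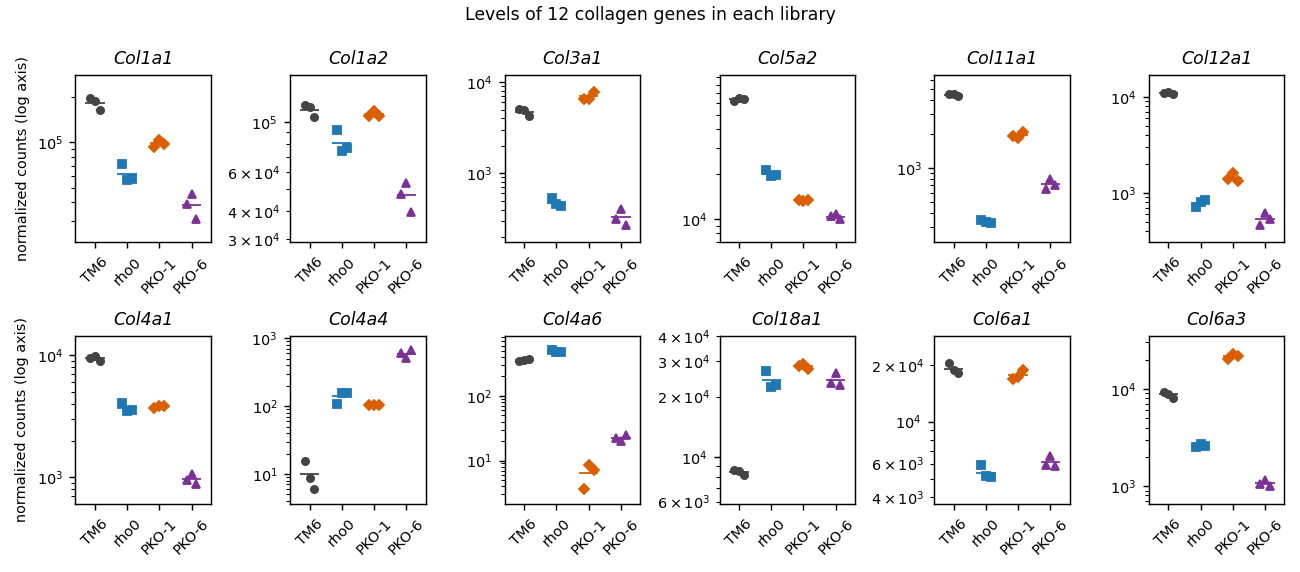
Normalised counts (log axis, different in each panel) of 12 collagen genes in each library, with points for the 3 libraries of a line and a bar at their mean. *Col3a1* and *Col6a3* are highest in PKO-1, *Col18a1* is at 22332 normalised counts or more in all 9 derived libraries and at 8597 or fewer in TM6, and *Col4a6* is at 25.2 or fewer in both PKO clones.

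Among the type IV chains, a common pair fell and a rarer pair rose. *Col4a1* and *Col4a2*, the chains found in nearly all basement membranes, fell in each derived line and most in PKO-6. *Col4a1* stood at 9443, 9875 and 9061 normalised counts in TM6, 4067, 3471 and 3602 in rho0, 3732, 3831 and 3816 in PKO-1 and 956, 1060.2 and 891 in PKO-6. The rho0 and PKO-1 libraries overlapped, and those of PKO-6 lay lowest. Its changes were -1.35 ± 0.07, -1.32 ± 0.07 and -3.29 ± 0.08 (adjusted p = 9.18e-10, 1.56e-09 and 3.09e-13). Between PKO-1 and rho0 the difference was 0.03 ± 0.07 (adjusted p = 0.716), and between PKO-1 and PKO-6 it was 1.97 ± 0.07 (adjusted p = 6.04e-11). *Col4a2* stood at 8093, 8312 and 7829.6 normalised counts in TM6, 2392, 2167 and 2134 in rho0, 2422, 2516 and 2528 in PKO-1 and 690.3, 673 and 630.2 in PKO-6. It changed by -1.86 ± 0.06, -1.70 ± 0.06 and -3.60 ± 0.06 (adjusted p = 4.60e-12, 1.30e-11 and 2.32e-14), and the TPM ratio of *Col4a1* to *Col4a2* was 1.14 ± 0.0155 in TM6, 1.62 ± 0.0527 in rho0, 1.49 ± 0.0147 in PKO-1 and 1.42 ± 0.101 in PKO-6. These genes start head to head on chromosome 8 (11198423 to 11312826 and 11312805 to 11449287), their annotations overlapping by 22 bases on opposite strands. The median change of the 739 tested genes of that chromosome was -0.18 in rho0, -0.11 in PKO-1 and -0.43 in PKO-6.

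*Col4a3* and *Col4a4*, chains known from kidney, lung and inner ear membranes, were low in TM6 and rose in each derived line. They start 72 bases apart on opposite strands of chromosome 1, with the 71 bases printed above between them. *Col4a3* stood at 16.4, 15.3 and 13.96 normalised counts in TM6, 76.5, 99.7 and 90.4 in rho0, 44.05, 35.1 and 38.3 in PKO-1 and 292, 235 and 303 in PKO-6. *Col4a4* stood at 15.6, 8.60 and 5.98 normalised counts in TM6, 108, 156 and 159 in rho0, 102, 104 and 102 in PKO-1 and 609, 504 and 660.3 in PKO-6. For both genes every derived library was above every TM6 library, and PKO-6 was the highest line. *Col4a3* changed by 2.53 ± 0.19 in rho0, 1.35 ± 0.21 in PKO-1 and 4.17 ± 0.18 in PKO-6 (adjusted p = 3.77e-08, 5.84e-05 and 1.05e-10). *Col4a4* changed by 3.76 ± 0.26, 3.31 ± 0.26 and 5.83 ± 0.24 (adjusted p = 1.58e-08, 1.08e-07 and 7.36e-11). PKO-1 was different from PKO-6 by -2.82 ± 0.16 (adjusted p = 3.46e-09) for *Col4a3* and -2.52 ± 0.18 (adjusted p = 4.02e-08) for *Col4a4*. On the TPM scale, *Col4a3* and *Col4a4* were at 0.0533 ± 0.00577 and 0.0367 ± 0.0208 in TM6, where *Col4a1* had 44.5 ± 1.62 and *Col4a2* 39.02 ± 0.938. In PKO-6 the rarer pair reached 0.967 ± 0.176 and 2.27 ± 0.440 TPM, beside 4.39 ± 0.175 for *Col4a1* and 3.09 ± 0.0954 for *Col4a2*.

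*Col4a5* and *Col4a6* start head to head on chromosome X, 1342 bases apart, and changed by unlike amounts in each derived line. *Col4a5* stood at 4947, 5462 and 5147 normalised counts in TM6, 1768, 1651 and 1641 in rho0, 3469, 3245 and 3288 in PKO-1 and 1598, 1568 and 1506 in PKO-6. It fell in each line, with -1.62 ± 0.05, -0.64 ± 0.05 and -1.74 ± 0.05 (adjusted p = 1.41e-11, 1.44e-07 and 4.70e-12). The whole chromosome was lower as well: the median change of its 459 tested genes was -0.75 in rho0, -0.74 in PKO-1 and -0.87 in PKO-6. Once each chromosome's median was taken off, *Col4a5* in PKO-1 was at 0.10. *Col4a6* stood at 350.2, 356 and 374 normalised counts in TM6, 509, 473 and 480.2 in rho0, 3.57, 8.52 and 7.24 in PKO-1 and 22.1, 19.7 and 25.2 in PKO-6. Both PKO clones were far under TM6 and rho0, at -5.75 ± 0.17 (adjusted p = 6.64e-12) for PKO-1 and -4.001 ± 0.14 (adjusted p = 1.41e-11) for PKO-6. In rho0 *Col4a6* was above the TM6 range at 0.44 ± 0.11 (adjusted p = 0.00204), under the fold threshold, and at 1.19 with the chromosome median removed, which passed it. PKO-1 differed from rho0 by -6.19 ± 0.17 (adjusted p = 7.41e-12) and PKO-6 by -4.44 ± 0.14 (adjusted p = 2.77e-11).

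*Col18a1*, on chromosome 10 (77052179 to 77166530), encodes the proteoglycan whose fragment is endostatin. It stood at 8597, 8571 and 8114 normalised counts in TM6, 26942, 22332 and 22888 in rho0, 28396, 28942 and 27526 in PKO-1 and 23434, 26239 and 22923 in PKO-6. All 9 derived libraries were far above the highest TM6 library, and the changes were 1.51 ± 0.08 in rho0, 1.75 ± 0.08 in PKO-1 and 1.52 ± 0.08 in PKO-6 (adjusted p = 7.59e-10, 2.48e-10 and 5.88e-10). The derived lines differed little from each other, PKO-6 from rho0 by 0.01 ± 0.07 (adjusted p = 0.932), PKO-1 from rho0 by 0.23 ± 0.07 (adjusted p = 0.0139) and PKO-1 from PKO-6 by 0.23 ± 0.07 (adjusted p = 0.0181). *Col15a1*, its close relative, was at 19.9, 21.02 and 18.9 normalised counts in TM6, at 0 in all rho0 and PKO-1 libraries and at 1 count or fewer in PKO-6. It was called lower in each line, and no fold is given because the derived lines were at or under 3 counts.

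Among the other collagens, *Col12a1*, which encodes a fibril-associated collagen of tendon and fascia, changed most among those with over 1000 normalised counts on average. It stood at 10924, 11237 and 10780.1 normalised counts in TM6, 712, 812 and 833 in rho0, 1382, 1611 and 1333 in PKO-1 and 463, 615 and 538 in PKO-6. The lines did not overlap, and the changes were -3.81 ± 0.10, -2.93 ± 0.10 and -4.35 ± 0.10 (adjusted p = 1.48e-12, 1.39e-11 and 4.31e-13). *Col16a1*, another fibril-associated collagen, showed smaller differences, from 5655, 4687 and 4909 normalised counts in TM6 to 4171, 3631 and 3644 in rho0, 4220.0, 4124 and 5175 in PKO-1 and 4219.6, 4719 and 3963 in PKO-6. None of its changes was called, with -0.41 ± 0.10 in rho0, -0.17 ± 0.10 in PKO-1 and -0.24 ± 0.10 in PKO-6 (adjusted p = 0.00199, 0.141 and 0.0422).

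The chains of type VIII, a short-chain collagen of the cornea and vessel wall, went apart. *Col8a1* stood at 9814, 11368 and 11137 normalised counts in TM6, 12258, 11383 and 11585 in rho0, 18351, 18288 and 17364 in PKO-1 and 14923, 15646 and 14922 in PKO-6. It rose in PKO-1 by 0.74 ± 0.06 (adjusted p = 1.51e-07). In PKO-6 all libraries were also above TM6, at 0.49 ± 0.06 (adjusted p = 6.19e-06), just under the fold threshold, and in rho0 they lay barely above it, at 0.12 ± 0.06 (adjusted p = 0.0819). *Col8a2* stood at 563, 524 and 453 normalised counts in TM6, 80.4, 74.2 and 78.2 in rho0, 9.52, 6.39 and 16.5 in PKO-1 and 11.5, 10.4 and 6.79 in PKO-6. It fell in each line, with -2.72 ± 0.17, -5.54 ± 0.22 and -5.72 ± 0.22 (adjusted p = 4.86e-09, 7.85e-11 and 3.05e-11), and the PKO clones, whose ranges overlapped, were under rho0 by -2.82 ± 0.24 (adjusted p = 2.95e-07) for PKO-1 and -2.997 ± 0.24 (adjusted p = 2.41e-07) for PKO-6.

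*Col10a1*, the short-chain collagen of hypertrophic cartilage, was at 295 to 298 normalised counts in TM6, 26.2 to 94.2 in rho0, 33.1 to 51.2 in PKO-1 and 30.1 to 49.1 in PKO-6. It was called lower in each line (-2.13, -2.78 and -2.93), and since it lies wholly within *Nt5dc1* on the opposite strand its counts are uncertain. *Col7a1*, the anchoring fibril collagen of skin, stood at 1745, 1113 and 1639 normalised counts in TM6, 863, 1088 and 1029.5 in rho0, 824, 787 and 1361 in PKO-1 and 2276, 1878 and 2426 in PKO-6. It was called in no comparison with TM6, at -0.60 ± 0.20 (adjusted p = 0.0170) in rho0, -0.60 ± 0.20 (adjusted p = 0.0191) in PKO-1 and 0.55 ± 0.20 (adjusted p = 0.0231) in PKO-6, but each of the 3 passed under some alternatives, among them 0.55 (adjusted p = 0.00800) in PKO-6 with the replicate number as a block and -0.89 in PKO-1 without PKO-1 replicate 3. PKO-6 was above both other derived lines, by 1.14 ± 0.20 (adjusted p = 3.23e-04) over rho0, and PKO-1 was different from PKO-6 by -1.14 ± 0.20 (adjusted p = 2.33e-04). As with *Col27a1*, a microRNA gene, here *Mir711*, lies within *Col7a1* on the same strand, and its reads could be shared with it.

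*Col14a1*, *Col17a1* and *Col20a1* were low in every library. Of their comparisons with TM6 only *Col14a1* in PKO-6 was called, at 2.002 ± 0.54 (adjusted p = 0.00425), from 1.99 to 6.69 normalised counts in TM6 to 13.9 to 28.1 in PKO-6. The 14 untested collagens (*Col6a4*, *Col6a5*, *Col6a6*, *Col9a1*, *Col9a2*, *Col9a3*, *Col13a1*, *Col19a1*, *Col22a1*, *Col23a1*, *Col24a1*, *Col25a1*, *Col26a1* and *Col28a1*) had at most 15 counts in any library, and *Col9a1* had 0 in all 12. With the filter on low counts removed, *Col19a1* and *Col22a1* passed in rho0, where both were at 0 in all libraries against at most 9 counts in TM6. In PKO-6 *Col6a4* and *Col22a1*, at 0 there against at most 8 counts in TM6, and *Col13a1*, at 0 in TM6 and at most 8 counts in PKO-6, passed as well. *Col24a1* did too, from 0 to 2.59 normalised counts in TM6 to 8.29 to 12.3 in PKO-6. At so few counts no fold is given, and differences in the remaining ones were not detectable at this depth.

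The derived lines were also compared with each other, in the same fit as above. TM6 is not part of these differences, but it enters the scaling and the shared estimate of spread. Between the PKO clones 18 of the 30 collagens passed the test, 12 with more counts in PKO-1 and 6 with fewer, where 29.1% of all tested genes were called (11.5% higher and 17.6% lower). The 12 included *Col1a1* (1.35 ± 0.13), *Col1a2* (1.21 ± 0.11), *Col5a1* (1.23 ± 0.07), *Col11a1* (1.45 ± 0.07), *Col12a1* (1.43 ± 0.10) and *Col4a5* (1.10 ± 0.05), with adjusted p between 9.21e-10 and 9.03e-07. The 6 were *Col4a3*, *Col4a4*, *Col4a6* (-1.75 ± 0.24), *Col5a3*, *Col7a1* and *Col27a1* (-1.88 ± 0.25). Between PKO-1 and rho0 15 passed, of which 10 had more counts in PKO-1 and 5 fewer, where 32.7% of all genes were called (15.1% higher and 17.6% lower). *Col11a1* (2.55 ± 0.08 (adjusted p = 1.78e-11)) and *Col6a1* (1.71 ± 0.08 (adjusted p = 4.17e-10)) followed *Col3a1* and *Col6a3* among those higher in PKO-1. Between PKO-6 and rho0 17 passed, 6 with more counts in PKO-6 and 11 with fewer, where 21.5% of all genes were called (13.3% higher and 8.16% lower). Lowest in PKO-6 beside rho0 were *Col4a6* (-4.44) and *Col8a2* (-2.997), given above. Those lower also included *Col4a1* (-1.94 ± 0.07 (adjusted p = 1.32e-10)), *Col4a2* (-1.75 ± 0.06 (adjusted p = 4.59e-11)), *Col6a3* (-1.28 ± 0.07 (adjusted p = 9.83e-09)) and *Col5a1* (-1.23 ± 0.07 (adjusted p = 1.29e-08)). Those higher included *Col27a1* (2.85 ± 0.29 (adjusted p = 2.10e-06)), *Col4a4* (2.07 ± 0.17 (adjusted p = 3.54e-07)) and *Col4a3* (1.64 ± 0.14 (adjusted p = 5.54e-07)).

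Neighbouring collagen genes did not always change alike. *Col3a1* and *Col5a2* lie tail to tail on chromosome 1 with 24624 bases between them. In rho0 and PKO-6 both fell, by -3.32 and -1.67 and by -3.86 and -2.63 on the log2 scale, whereas in PKO-1 *Col3a1* rose by 0.56 and *Col5a2* fell, at -2.26. The TPM ratio of *Col3a1* to *Col5a2* was 0.0891 ± 0.0105 in TM6 (SD, n = 3), 0.0283 ± 0.00176 in rho0, 0.628 ± 0.0641 in PKO-1 and 0.0379 ± 0.00654 in PKO-6. *Col6a2* and *Col6a1*, in tandem on chromosome 10, had the same calls in all 3 comparisons with TM6, as had the pairs *Col4a1* with *Col4a2* and *Col4a3* with *Col4a4*. *Col4a5* and *Col4a6* had different calls in rho0. In the PKO clones both were called lower but by unlike amounts, at -0.64 and -5.75 in PKO-1 and at -1.74 and -4.001 in PKO-6.

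A few collagens had more than 1 transcript with at least 10% of the gene's reads. RSEM split these reads by estimate, so the shares carry that method's error. In *Col6a3* the transcript NM_001243008.1 of 44 exons took 67.8% to 70.3% of the counts in TM6, 73.6% to 75.8% in rho0, 74.1% to 77.3% in PKO-1 and 71.5% to 89.1% in PKO-6, the remainder going to NM_001243009.1 of 41 exons. In *Col4a5* the share of NM_007736.4, which has 52 exons where NM_001163155.1 has 51, was 6.82% to 11.7% in TM6, 18.1% to 31.4% in rho0, 11.2% to 22.3% in PKO-1 and 12.7% to 15.6% in PKO-6. The rho0 and PKO-6 libraries, but not all PKO-1 libraries, were thus above the highest TM6 share. All 59 counts of *Col2a1* in TM6 were given to NM_031163.3 of 54 exons, and all 8 counts in rho0, 30 in PKO-1 and 54 in PKO-6 to NM_001113515.2 of 53 exons. At such counts the split may rest on a few reads. *Col5a3*, *Col11a2* and *Col17a1* had shares that varied widely between libraries of 1 line. In PKO-1, for instance, that of NM_001317388.1 of *Col5a3* ran from 0% to 87%. Those of NM_001317722.1 of *Col11a2* and NM_001290825.1 of *Col17a1* ran from 0% to 100% there. *Col24a1* and *Col25a1* had too few counts to tell.

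Genes that make, cross-link, bind or sense collagen were then listed by role, 54 in all, of which 49 were tested. In rho0 31 of them were called (27 lower and 4 higher), in PKO-1 28 (19 lower and 9 higher) and in PKO-6 33 (27 lower and 6 higher), to be read against the 42.1%, 34.3% and 41.3% of all genes called. By direction, 21.4%, 17.9% and 19.4% of all genes were called lower and 20.7%, 16.4% and 21.9% higher.

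Of 25 tested processing enzymes and chaperones, which hydroxylate, fold, export and trim procollagen, 13 fell and 2 rose in rho0, 9 fell and 3 rose in PKO-1, and 14 fell and 1 rose in PKO-6. *Tll1*, a tolloid proteinase that trims procollagen ends, fell from 369 ± 46.5 normalised counts in TM6 (SD, n = 3) to 23.5 ± 4.97 in rho0, 54.6 ± 4.58 in PKO-1 and 16.98 ± 2.79 in PKO-6, with adjusted p = 1.93e-10, 3.33e-09 and 6.32e-11. *Adamts2*, the procollagen N-proteinase, changed by -2.05 ± 0.19, -1.81 ± 0.19 and -3.64 ± 0.22 (adjusted p = 3.87e-07, 1.47e-06 and 3.39e-09), while its relative *Adamts14* rose in PKO-6, by 1.84 ± 0.09 (adjusted p = 4.65e-10), at -0.12 ± 0.10 (adjusted p = 0.266) in rho0 and -0.22 ± 0.10 (adjusted p = 0.0553) in PKO-1. *Fkbp14*, a prolyl isomerase of the endoplasmic reticulum, fell in each line (-2.03 ± 0.10, -1.88 ± 0.10 and -1.06 ± 0.10). *P4ha3*, a subunit of prolyl 4-hydroxylase, fell most in PKO-6 (-3.25 ± 0.11 (adjusted p = 1.61e-11)). Higher were the lysyl hydroxylase *Plod2* (0.64 ± 0.06 (adjusted p = 3.06e-07)) and the prolyl 3-hydroxylase family member *P3h3* (0.94 ± 0.09 (adjusted p = 2.87e-07)) in rho0, and *P4ha1* (0.52 ± 0.06 (adjusted p = 4.19e-06)), *P3h2* (0.57 ± 0.08 (adjusted p = 2.15e-05)) and *P3h4* (0.66 ± 0.09 (adjusted p = 3.20e-05)) in PKO-1. *Serpinh1*, the collagen chaperone HSP47, named here after its values were seen, fell from 35722 ± 886 normalised counts in TM6 to 21248 ± 2065 in rho0, 21836 ± 1194 in PKO-1 and 15394 ± 812 in PKO-6 (adjusted p = 5.61e-07, 1.26e-06 and 3.75e-09).

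All 5 lysyl oxidase genes, whose enzymes cross-link collagen and elastin, were tested, and 4 fell in rho0, 4 in PKO-6 and 2 in PKO-1. *Loxl2* changed by -1.45 ± 0.09 in rho0, -1.90 ± 0.09 in PKO-1 and -2.90 ± 0.09 in PKO-6, and *Loxl1* by -0.82 ± 0.09, -1.38 ± 0.09 and -1.22 ± 0.09, with adjusted p of at most 1.43e-06. *Loxl3* divided the lines as *Col3a1* and *Col6a3* did: it stood at 2277, 2009 and 2034 normalised counts in TM6, 1269, 1286 and 1279 in rho0, 7795, 8043 and 8933 in PKO-1 and 847, 819.8 and 769.8 in PKO-6. It rose in PKO-1 by 1.97 ± 0.06 (adjusted p = 1.43e-11) and fell in rho0 (-0.72 ± 0.07 (adjusted p = 2.94e-07)) and PKO-6 (-1.37 ± 0.07 (adjusted p = 4.24e-10)). *Lox* fell in rho0 (-0.54 ± 0.07 (adjusted p = 6.97e-06)) and in PKO-6 (-1.92 ± 0.07 (adjusted p = 2.23e-11)) and was at -0.44 ± 0.07 (adjusted p = 6.43e-05) in PKO-1.

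Of 11 tested collagen-binding matrix genes, 9 fell and none rose in rho0, and 7 fell in each PKO clone, where 3 rose in PKO-1 and 2 in PKO-6. *Bgn*, the proteoglycan biglycan, stood at 23058, 24287 and 23129 normalised counts in TM6, 4299.7, 3522 and 3889 in rho0, 258, 274 and 279 in PKO-1 and 47.5, 59.1 and 48.5 in PKO-6. These are changes of -2.59 ± 0.07 (adjusted p = 2.20e-12), -6.44 ± 0.09 (adjusted p = 9.79e-15) and -8.83 ± 0.11 (adjusted p = 1.10e-15). The gene lies on chromosome X, whose median changes are given above. *Thbs1*, thrombospondin-1, changed by -3.62 ± 0.08, -1.39 ± 0.07 and -2.81 ± 0.07, and *Aspn*, asporin, by -2.96 ± 0.12, -1.35 ± 0.11 and -5.52 ± 0.15. *Dcn*, decorin, went the other way in the PKO clones, from 25.3 ± 5.04 normalised counts in TM6 to 183 ± 32.9 in PKO-1 (2.84 ± 0.22 (adjusted p = 9.37e-08)) and 147 ± 30.1 in PKO-6 (2.52 ± 0.22 (adjusted p = 2.25e-07)), and fell to 8.20 ± 2.57 in rho0 (-1.63 ± 0.33 (adjusted p = 5.13e-04)). *Lum*, lumican, rose in PKO-1 to 116 ± 30.1 normalised counts from 7.70 ± 4.31 in TM6 (3.89 ± 0.43 (adjusted p = 8.46e-06)).

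Of 8 tested collagen receptor genes, 3 were called in rho0, 3 in PKO-1 and 5 in PKO-6, where 42.1%, 34.3% and 41.3% of all genes were called, so the counts in rho0 and PKO-1 were near the background. *Itga11*, the integrin chain for fibrillar collagen, fell from 301 ± 38.7 normalised counts in TM6 to 64.3 ± 9.81 in rho0, 101 ± 19.7 in PKO-1 and 13.4 ± 0.988 in PKO-6 (adjusted p = 3.68e-08, 1.07e-06 and 1.79e-10). *Itga1*, an integrin chain that binds type IV collagen, rose in rho0 (0.65 ± 0.09 (adjusted p = 1.56e-05)) and PKO-6 (1.05 ± 0.09 (adjusted p = 1.08e-07)) and was at 0.21 ± 0.09 (adjusted p = 0.0552) in PKO-1. *Ddr2*, a receptor tyrosine kinase for fibrillar collagen, rose in rho0 (0.81 ± 0.06 (adjusted p = 4.96e-08)) and PKO-6 (0.61 ± 0.06 (adjusted p = 7.97e-07)), with 0.47 ± 0.06 (adjusted p = 1.42e-05) in PKO-1, under the fold threshold. *Mrc2*, the receptor that takes up collagen for degradation, rose in PKO-1 (0.86 ± 0.09 (adjusted p = 2.14e-06)) and was at -0.40 ± 0.09 (adjusted p = 0.00154) in rho0 and -0.02 ± 0.09 (adjusted p = 0.836) in PKO-6.

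**Figure D5:**
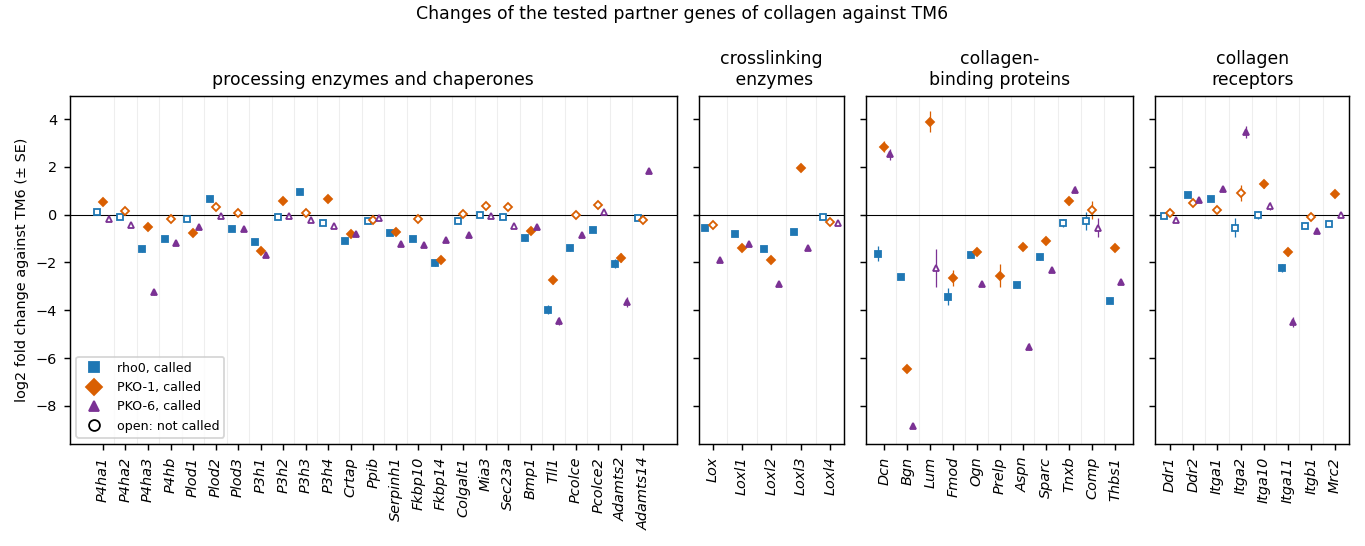
Log2 fold change against TM6 (vertical axis, ± SE) of the tested genes that process, cross-link, bind or sense collagen, by role, in rho0 (squares), PKO-1 (diamonds) and PKO-6 (triangles); filled symbols were called and open ones were not, and values of genes at 3 counts or fewer in 1 of the lines compared are left out. Most called genes lie below 0, *Bgn* lowest at -8.83 in PKO-6, while *Dcn* in both PKO clones and *Loxl3* in PKO-1 lie above it.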

How the data were processed

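Ribosome-depleted RNA-seq data of 12 libraries were used, 3 biological replicates each of TM6, rho0, PKO-1 and PKO-6 MEFs. Per the labels, the authors made strand-specific paired-end libraries in technical duplicate and merged their reads. The deposited values are expected counts, estimated by the authors with RSEM 1.2.25 and bowtie2 against RefSeq transcripts of mm10 (GRCm38). The authors collapsed them to genes and did not normalise them. The deposited per-library transcript values also hold TPM, estimated by the authors with RSEM, which were summed per gene for levels and ratios between genes, and their expected counts gave the transcript shares. The FPKM values and isoform percentages that the authors deposited beside them were not used.

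Expected counts were rounded to whole numbers. With edgeR 4.0.16 in R 4.3.3, low genes were removed by filterByExpr (minimum count 10), leaving 14026 of 24453 genes, library sizes were scaled by TMM, and quasi-likelihood tests were run on all 12 libraries with line as the factor, or with both PKO clones as 1 group. P-values were adjusted over all tested genes by Benjamini-Hochberg. A gene was called at adjusted p under 0.01 and a log2 fold change over 0.5 in size. SE is that of the log2 fold change, from the quasi-likelihood F statistic. The biological coefficient of variation was 0.0837 over the 4 lines and 0.248 with clones pooled. The fit was tested on simulated counts for rho0 against TM6, where 88.4% of 199 changed genes among 13746 were recovered and 0 unchanged genes were called. Far fewer genes were changed there than the 42.1% called in the data for that comparison. The simulation therefore does not show how the fit performs under such widespread change. Alternatives were DESeq2 1.42.0, other size factors, no filter, a fold threshold of 1, the replicate number as a block, only the compared groups, pooled clones, removal of chromosome medians, and each library left out.

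Libraries of a line differed from each other by more than sampling noise, with a chi-square per degree of freedom of 4.47 to 129. Whether equal replicate numbers pair the libraries was checked by correlating deviations from the line means. All 3 same-numbered pairs exceeded 0.1 for TM6 with PKO-6 (0.209 to 0.250), and not for any other pair of lines, but libraries of different number reached 0.490. Collagens of at least 1000 normalised counts on average, and the 5 called members with the largest changes in each direction of each comparison, among those of at least 100 in the higher group, are given for every library. Partner genes were named by the 3 largest called changes per list and direction, with the same minimum. The members, gene lists and naming rules were chosen with earlier results of these data known. Start sites and their upstream bases come from RefSeq (GRCm38.p6).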

Additional observations from a re-analysis of the deposited data

Results flagged for a closer look

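*Col3a1* and *Col6a3* changed in opposite directions in different lines under the same contrast with TM6. They were flagged for this, and the direct comparisons of the lines come from the same libraries and fit. These comparisons therefore give the size of the difference and are not independent support for it. For *Col3a1*, the log2 fold change against TM6 was 0.56 in PKO-1, -3.86 in PKO-6 and -3.32 in rho0. PKO-1 differed from PKO-6 by 4.42 (edgeR adjusted p = 1.52e-11) and from rho0 by 3.88 (adjusted p = 5.23e-11), with all 3 PKO-1 libraries above all libraries of the other line. For *Col6a3*, the changes against TM6 were 1.31, -3.04 and -1.76, and PKO-1 differed from PKO-6 by 4.34 (adjusted p = 1.58e-13) and from rho0 by 3.06 (adjusted p = 2.30e-12).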

How the results depend on the processing

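The number of collagens called in rho0 against TM6 fell from 21 to 13 when the PKO clones were fitted as 1 group, which raises the shared estimate of spread. With a fold threshold of 1, the partner genes called fell from 31 to 20 in rho0 and from 28 to 18 in PKO-1, and with pooled clones to 20 in rho0. Every other total stayed within 1.5 times its main value. Of the counts by direction, with a fold threshold of 1 the collagens higher in PKO-1 than in rho0 fell from 10 to 6, those lower in PKO-6 than in rho0 from 11 to 6, and the partner genes called higher from 9 to 4 in PKO-1 and from 4 to 0 in rho0, while at adjusted p alone the partner genes higher in PKO-1 went from 9 to 14. With pooled clones, collagens went from 4 to 2 higher and 17 to 11 lower in rho0, and partner genes from 27 to 17 lower. Without rho0 replicate 1, collagens lower in PKO-1 than in rho0 went from 5 to 8. No other count by direction moved by over 1.5 times. With 1 library left out, collagens called ranged from 20 to 23 in rho0, 19 to 21 in PKO-1 and 23 to 25 in PKO-6, from 18 to 20 for PKO-1 against PKO-6, 14 to 18 for PKO-1 against rho0, 15 to 19 for PKO-6 against rho0 and 13 to 17 for pooled clones. Partner genes ranged from 31 to 33 in rho0, 26 to 28 in PKO-1 and 32 to 36 in PKO-6.

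With chromosome medians removed, *Col4a5* in PKO-1 turned to 0.10, *Col6a1* in PKO-1 to 0.057, *Col4a1* for PKO-1 against rho0 to -0.027 and *Col18a1* for PKO-6 against rho0 to -0.17. The last 2 are differences near 0 that also turned sign without a single library, *Col4a1* ranging from -0.023 without rho0 replicate 2 to 0.085 without rho0 replicate 1, and *Col18a1* from -0.065 without PKO-6 replicate 2 to 0.077 without rho0 replicate 1. *Col18a1* was also at -0.0011 with DESeq2's size factors or its test and -0.0064 without *Rn45s*, an alternative chosen after seeing the data. *Col6a3* in the pooled clones turned from 0.38 to -0.86 when the clones' log2 changes were averaged, and *Col3a1* from -0.38 to -1.65, which gained a call. *Col3a1* for PKO-6 against rho0 (-0.54) lost its call without rho0 replicate 1 or 2 or PKO-6 replicate 1 or 3, and *Col12a1* there without PKO-6 replicate 1 (-0.46). That call of *Col3a1* was also lost with only the compared groups fitted by edgeR, at -0.53 (adjusted p = 0.0201). In the pooled comparison *Col1a1*, *Col4a1*, *Col4a3* and *Col4a5* lost their call without any 1 of the TM6 libraries. All 4 also lost it with the replicate number as a block and with only the compared groups fitted. Calls were lost in 5 of 20 alternatives for *Col1a1* and for *Col4a1*, in 7 for *Col4a5* and in 11 for *Col4a3*.

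Only between TM6 and PKO-6 were the correlations of same-numbered libraries all positive, and they were weak (0.209 to 0.250). Libraries of different number reached 0.490, for rho0 replicate 1 with PKO-6 replicate 2. Over the 18 same-numbered pairs of libraries, correlations ran from -0.385 to 0.250, 10 exceeded 0.1, and 5 of 12 libraries correlated best with their own number. With the replicate number as a block, collagens called were 22 in rho0, 21 in PKO-1, 24 in PKO-6 and 13 in the pooled clones.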
